A study of Solanum phureja with 20 samples.

Results

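In growing potato leaflets, 789 array spots differed in the same direction at both chromosome doublings of a ploidy series, once between the monoploid and the diploids and again between the diploids and the tetraploid. They were chosen from 14107 spots that had all the values needed, which makes them 5.59% of those spots. A spot was taken when its mean log2 ratio was at least 0.2, or at most -0.2, at each of the 2 steps. Its root tip ratio of diploids over monoploid had to be missing or smaller than 0.3 in size, and its annotation had to hold no gene symbol or only LOC numbers. Of the 789 spots, 328 were higher at each step and are called rising members, and 461 were lower at each step and are called falling members. Both words name the direction that the rule required and report no test.

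The ploidy series, O37, was made by doubling the chromosomes of a single monoploid plant with a Solanum phureja background, so all lines share a genotype and each line is a single line. Its lines are the monoploid 1x, 2 diploids named 2xR3 and 2xR5, and the tetraploid 4x. Expanding leaflets were sampled from 6 plants per line 20 days after planting, and root tips 7 days after planting, with the root RNA amplified. Each of 20 spotted arrays set one line in Cy3 against another in Cy5, with 12 arrays for leaf and 8 for root. In leaf, replicates 1 and 2 were closed loops of 4 arrays that joined 1x and 4x through both diploids, as were replicates 4 and 5 in root. Replicate 3, of leaf, consisted of dye-swapped pairs, one pair for 4x with 1x and one for 2xR5 with 2xR3. The labels do not link replicates to individual plants, and p-values cover only the spread between the RNA samples used. No array compared tissues, so tissue markers could not be checked.

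Doubling the chromosomes of a single genome gives an autopolyploid, in which every gene gains copies in the same proportion. If transcription follows copy number for all genes alike, the composition of the RNA pool stays the same, and a ratio normalised within an array stays at 0. A departure from 0 is therefore a change relative to the other spots, and the total RNA per cell is not measured. Polyploid plants often have larger cells and altered proportions of cell types. In whole leaflets, fewer cells of a type and less RNA per cell cannot be told apart.

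All signs below take Cy5 as the numerator of the deposited log2 ratio. That reading is likely, being limma's convention, but no source used here states it. With the reverse reading every sign would turn and every size would stay. Arrays held a value for 12403 to 18629 spots, and precision is limited by how few arrays there were. The dye-swapped arrays of 4x with 1x, as deposited, correlated across spots at r = -0.504 over 12174 spots and at r = -0.752 over 679 members. Those of the diploid lines correlated at r = -0.429 over 11411 spots and r = -0.49 over 653 members. Spots are not independent replicates, and negative values are what a dye swap gives.

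The values that chose the members were the first step, the mean log2 ratio of diploids over 1x on 4 leaf arrays, and the second step, the mean of 4x over diploids on another 4. All 8 arrays belong to replicates 1 and 2, and each step averages 2 arrays of each dye orientation, which balances dye effects of single spots. The steps share the diploid RNA, so an error in the diploid samples moves them in opposite directions. The rising members had a median first step of 0.28, with a range of 0.20 to 0.79, and a median second step of 0.28, with a range of 0.20 to 0.97. The falling members had a median first step of -0.39, with a range of -1.38 to -0.20, and a median second step of -0.32, with a range of -0.80 to -0.20. These sizes describe the choice and test nothing.

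Added over both steps, the median change in 4x against 1x was 0.58 for rising members, a 1.5-fold higher ratio, and -0.72 for falling members, a 1.64-fold lower one. A summed change of 2-fold or more was reached by 14 rising and 64 falling members. The falling side therefore held more spots and larger summed changes. Among falling members the first step was the larger in 289 and the second in 172. Among rising members the first step was the larger in 153 and the second in 174. The steps lay within 0.1 of each other in 207 rising and 216 falling members.

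**Figure D1:**
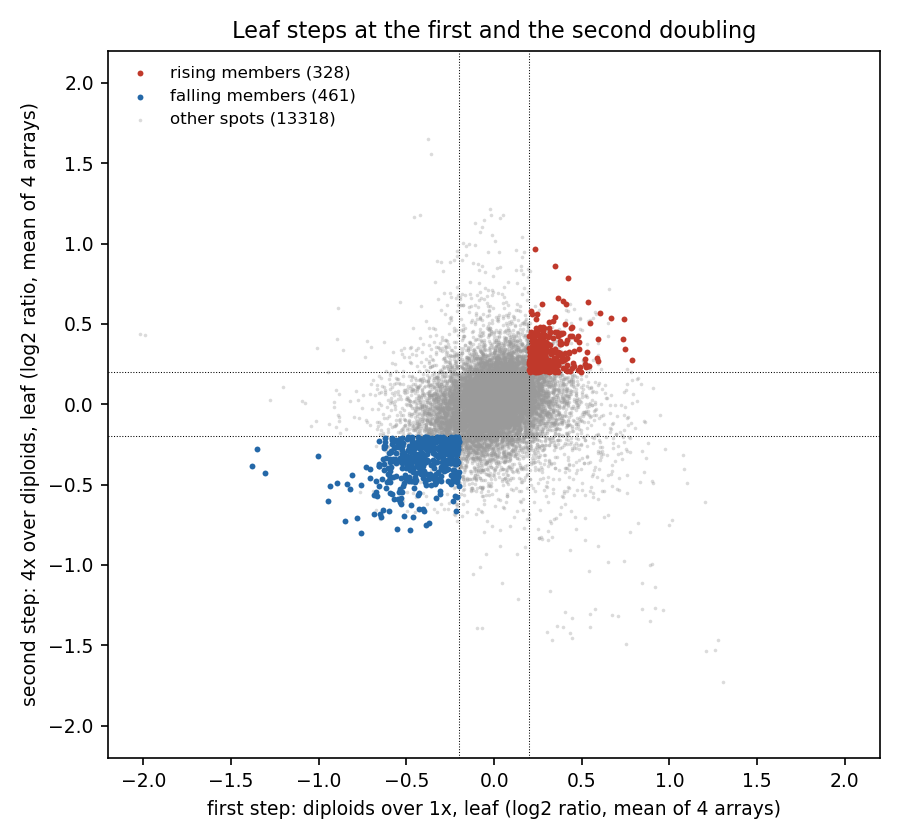
Each point is a spot with all 8 leaf values; the x axis is the first step, diploids over 1x, and the y axis the second step, 4x over diploids, both as mean log2 ratios of 4 arrays. Rising members (328, red) fill the upper right corner beyond the dotted limits at 0.2 and falling members (461, blue) the lower left beyond -0.2; grey points in those corners were left out for their root ratio or their gene symbol.

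Spots past the limit at both steps had the same direction more often than opposite ones. Of the 14107 spots, a size of at least 0.2 was reached by 4522 at the first step and by 4100 at the second. Whether the steps overlap more than unrelated ones would was not tested. Both steps passed in the same direction in 1154 spots, 495 upward and 659 downward, and in opposite directions in 520 spots, 325 up then down and 195 down then up. Of the 1154 spots, 350 were left out for a root ratio of 0.3 or more in size and 15 for a gene symbol other than a LOC number.

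The limits cut through a continuous spread of values. The smaller of the 2 steps lay between 0.20 and 0.22 in 162 spots just inside the limit, against 216 spots between 0.18 and 0.20 just outside it. The largest value outside was 0.19975. Near the root limit, 85 members had a root ratio of 0.25 to 0.3 in size, against 82 spots of 0.3 to 0.35 that were left out.

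The single arrays varied more than the means. All 8 leaf arrays had the required sign in 122 of 328 rising members and in 239 of 461 falling members. Within a single loop, both steps had the required sign in 316 rising members in replicate 1 and 326 in replicate 2, and in 455 and 450 falling members. The second step of replicate 1 was uneven between the diploids. Rising members had an array median of 0.41 for 4x over 2xR3 and 0.10 for 4x over 2xR5, and falling members -0.43 and -0.19. In replicate 2 the same comparisons gave 0.30 and 0.32 for rising members, and -0.36 and -0.34 for falling members.

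The array printed most clones as duplicate spots, and the pairing was inferred from the print layout. By that pairing the members belonged to 569 clones, 240 rising and 329 falling. Both spots of the clone were members in 88 rising and 132 falling clones. In the other 152 rising clones, 27 partner spots lacked some of the 8 values, and 111 of the remaining 125 had the clone's sign at both steps. Their smaller step had a median of 0.138. In the other 197 falling clones, 42 partners lacked values, and 145 of the remaining 155 had the clone's sign at both steps, with a median smaller step of 0.16. Most partner spots that missed the rule therefore lay on the same side of 0 as the member, with smaller values. Members lay in all 48 print blocks, at 8 to 25 per block.

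The annotation names few of the members. No symbol was given for 707 spots, several symbols for 7, and exactly 1 for 75 spots, which belong to 36 genes, 10 rising and 26 falling. These symbols come without a description, so no role is given here for any of them. The 10 rising genes and the 15 falling genes with the largest smaller step are named below.

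LOC102596783 had the largest steps of the rising genes, both of its spots being members. Its ratio of 2xR3 over 1x was 0.59 in replicate 1 and 0.57 in replicate 2, and that of 2xR5 over 1x was 1.14 and 0.67. At the second step its ratio of 4x over 2xR3 was 0.06 and 1.01, and that of 4x over 2xR5 was 0.14 and 0.29. All 8 values were above 0, and the first step (0.74 ± 0.27, SD over 4 arrays) was steadier than the second (0.38 ± 0.44), which rested largely on 1 array. Its summed change was 2.17-fold.

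LOC102601725 was represented by the most rising members, 6 spots from 3 of its 9 clones. Averaged over these spots, 2xR3 over 1x was 0.20 and 0.35 in replicates 1 and 2, and 2xR5 over 1x was 0.65 and 0.35. The ratio of 4x over 2xR3 was 0.15 and 0.53, and that of 4x over 2xR5 was 0.06 and 0.29. Every array was thus above 0 for this gene, with a summed change of 1.56-fold. Its 10 other measured spots had first steps from -0.11 to 0.25 and second steps from -0.01 to 0.13, and 6 of them were above 0 at both steps. Clones of this gene therefore did not all show steps of the size the rule asked for.

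LOC102577637 had 3 member spots from 2 clones, with steps of 0.49 ± 0.23 and 0.27 ± 0.34 (SD over 4 arrays). LOC102577605 had a second step of 0.37 ± 0.63 over 4 arrays whose values were 1.26 and -0.01 against 2xR3 and -0.11 and 0.35 against 2xR5. Its second step therefore passed the limit through a single array. LOC102577532, LOC102582822 and LOC102577438 had first steps of 0.41, 0.41 and 0.43, and second steps of 0.24 ± 0.21, 0.21 ± 0.27 and 0.20 ± 0.25 (SD over 4 arrays). Without replicate 2 these second steps were 0.12, 0.02 and 0.09, so they owed most of their size to that loop. LOC102577726, LOC102577931 and LOC102596978 had nearly equal steps, at 0.24 and 0.27, 0.23 and 0.27, and 0.21 and 0.22. Each of these 6 genes had a single member spot, and their other measured spots did not meet the rule.

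LOC102577564 led the falling genes, with 3 member spots from both of its clones. Its ratio of 2xR3 over 1x was -0.23 in replicate 1 and -0.80 in replicate 2, and that of 2xR5 over 1x was -0.67 and -0.72. The ratio of 4x over 2xR3 was -0.77 and -0.74, and that of 4x over 2xR5 was -0.39 and -0.39. All 8 arrays were below 0, and both steps were of like size, -0.61 ± 0.26 and -0.57 ± 0.21 (SD over 4 arrays). Its summed change was 2.26-fold lower.

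LOC102593129 and LOC102577624 each had 1 clone with both spots among the members. The steps of LOC102593129 were -0.56 ± 0.29 and -0.47 ± 0.16, and those of LOC102577624 were -0.55 ± 0.16 and -0.45 ± 0.09 (SD over 4 arrays). Every one of the 8 arrays was below 0 for both genes. LOC102577624 had the smallest array spread of the named genes at its second step, with 4x over 2xR3 at -0.44 and -0.36 and 4x over 2xR5 at -0.58 and -0.43. LOC102577839 reached -0.50 and -0.46 with a wide spread, since its ratio of 2xR3 over 1x was 0.11 in replicate 1 and -1.15 in replicate 2. Its 2 other measured spots were slightly above 0 at the first step, at 0.07 and 0.09.

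Several falling genes were held by more than one spot. LOC102599598, LOC102597208 and LOC102584908 had 4 member spots from 2 clones each, with first steps of -0.45, -0.43 and -0.44 and second steps of -0.38, -0.32 and -0.27. LOC102590282 had 5 member spots from 3 clones, at -0.48 and -0.26. No spot of these genes that had all 8 values lay outside the members, except 1 of LOC102590282, at -0.41 and -0.09. The other named falling genes, LOC102601989, LOC102577446, LOC102594986, LOC102584826, LOC102605882, LOC102600252 and LOC102585108, had first steps of -0.43 to -0.25 and second steps of -0.46 to -0.27. LOC102577446 had 2 member spots and the others 1 each. Other measured spots fell at both steps in 3 of 3 for LOC102601989, 4 of 5 for LOC102600252 and 3 of 5 for LOC102584826. They did so in only 2 of 6 for LOC102577446 and 1 of 3 each for LOC102605882 and LOC102585108, while LOC102594986 had none. In LOC102601989 and LOC102600252 the second step leaned on 1 array, the 4x over 2xR3 ratio of replicate 1, at -1.22 and -0.999.

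**Figure D2:**
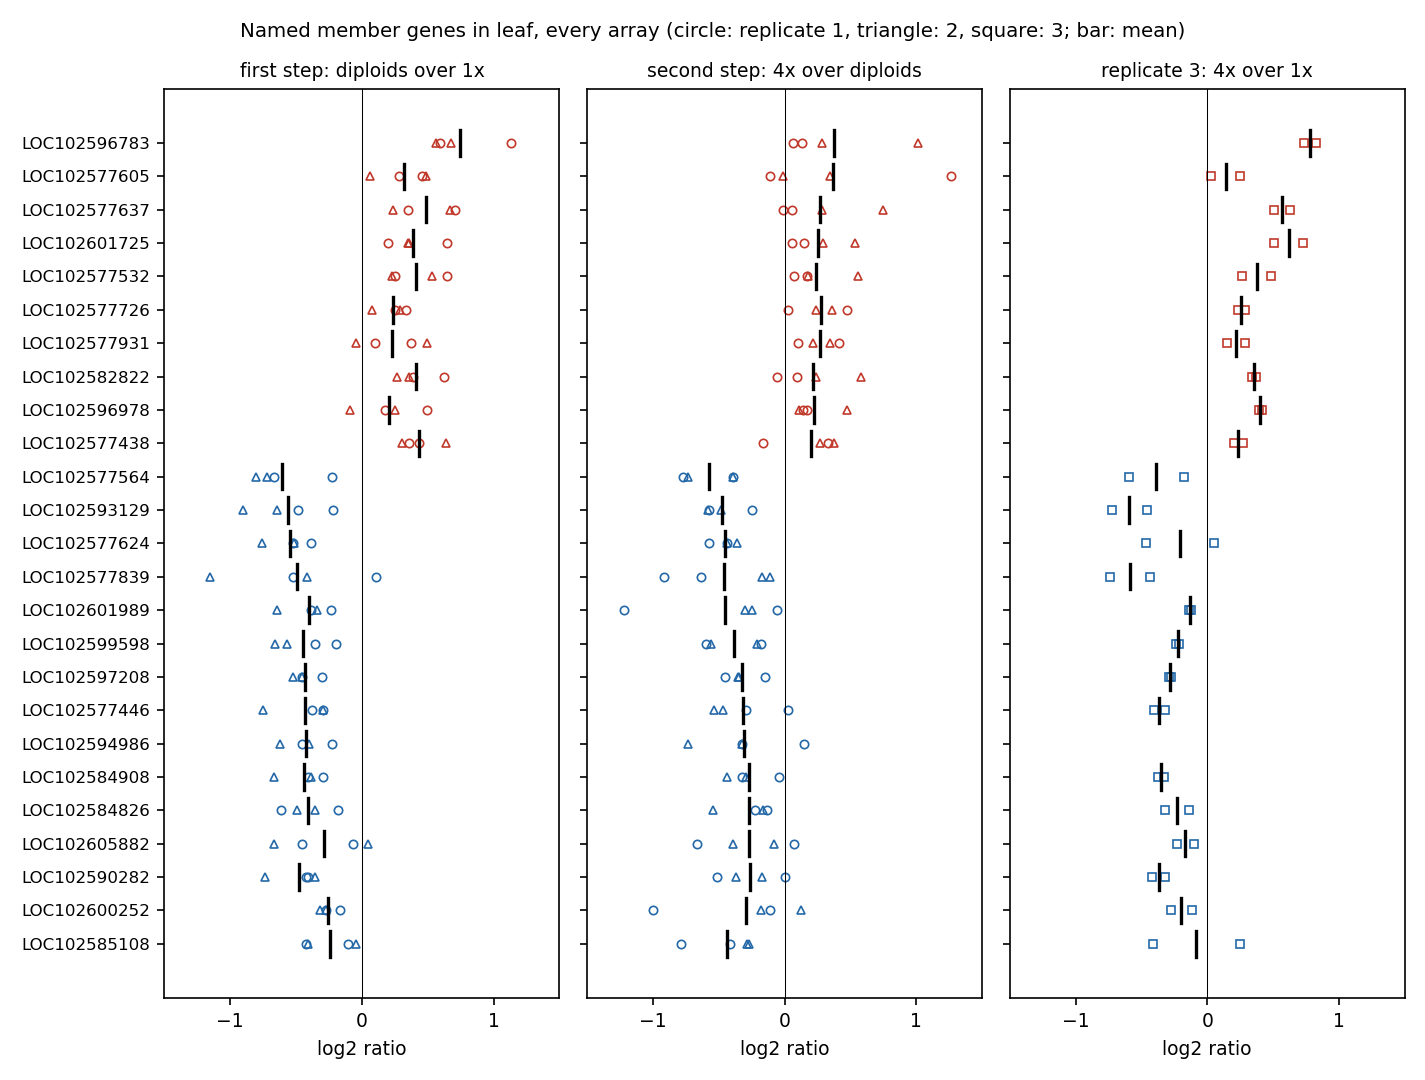
Log2 ratios of the 25 named genes in leaf, mean of each gene's member spots, for the first step (left panel), the second step (middle) and 4x over 1x in replicate 3 (right). Each symbol is an array, with circles for replicate 1, triangles for replicate 2 and squares for replicate 3, and the black bar is the mean. The 10 rising genes (red) lie right of 0 and the 15 falling genes (blue) left of it in the means, while single arrays of LOC102577605, LOC102577839 and others cross 0; LOC102594986 had no value in replicate 3.

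With either loop left out, no named gene turned its sign at a step. The genes were chosen on the mean of these same loops, so their signs and sizes here describe the choice and test nothing. The first step then moved by over 1.5 times in 4 of the 25 genes and was under 0.2 in size in 2. The second step moved by over 1.5 times in 14 and was under 0.2 in size in 14. Relative to its size, the second step thus differed between the loops in more of these genes than the first. Over all members it was the median first step that differed more between replicates 1 and 2. It was 0.24 and 0.35 for rising and -0.31 and -0.47 for falling members. The median second step was 0.28 and 0.33 for rising and -0.31 and -0.35 for falling members.

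Among the 25 named genes, 17 had other spots with all 8 values, 69 in all. Of those, 44 had the sign of the member at both steps. These spots share arrays and RNA with the members and are no separate replicates.

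Among clones without a symbol, the 2 rising and 2 falling ones with the largest smaller step are given by spot number. The rising clone of spots 140404 and 141248 had a first step of 0.67 and 0.61 and a second step of 0.54 and 0.57 on its 2 spots, with all 8 leaf arrays above 0. The rising spot 145180 had steps of 0.54 and 0.64. The falling clone of spots 136995 and 137839 had a first step of -0.76 and -0.69 and a second step of -0.80 and -0.68, and the falling spot 142987 had -0.78 and -0.71. For both falling clones 4x over 2xR3 was lowest in replicate 1, at -1.12 and -1.06 on the 2 spots of the first clone and -0.94 on spot 142987. In replicate 2 it was -0.49, -0.29 and -0.52.

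Leaf replicate 3 compared 4x with 1x directly, in RNA samples that the rule did not use. On the mean of the dye-swapped arrays, 279 rising members had a value, and 263 of them (94.3%) were higher in 4x, against 48.3% of the 11018 spots measured in both steps. Among 400 falling members with a value, 393 (98.3%) were lower in 4x, against 50.3% of those spots. The median ratio of 4x over 1x was 0.28 for rising members and -0.30 for falling members, and -0.01 over all those spots. Nearly all measured members thus kept their direction in a further pair of RNA samples. The 49 rising and 61 falling members without a value there are left out of these counts.

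The ratios were smaller in replicate 3 than the sum of the steps that chose the members. Members measured there had a median summed change of 0.59 for the rising and -0.73 for the falling ones, against the medians of 0.28 and -0.30 given above. Members were chosen for large values in replicates 1 and 2, so smaller values in other samples are built into the choice. A ratio of at least 0.2 in the required direction was found in 189 rising members (67.7%) against 18% of all those spots, and in 323 falling members (80.8%) against 18.7%. A ratio of that size in the opposite direction was found in 4 rising and 2 falling members.

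Both dye-swapped arrays had the required sign in 230 of 279 rising and 352 of 400 falling members. The array with 4x in Cy5 gave medians of 0.36 and -0.40 for rising and falling members, and the array with 1x in Cy5 gave 0.22 and -0.23. Replicate 3 measured the whole change and neither step by itself. Spots outside the rule whose steps summed to at least 0.4 in size also kept their sign there, in 91.3% of 1789 spots. These 1789 spots include some that passed the limit at both steps and were left out for their root ratio or gene symbol. Keeping the direction in replicate 3 is therefore not particular to the members. Spots that did not pass at both steps were not counted apart.

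**Figure D3:**
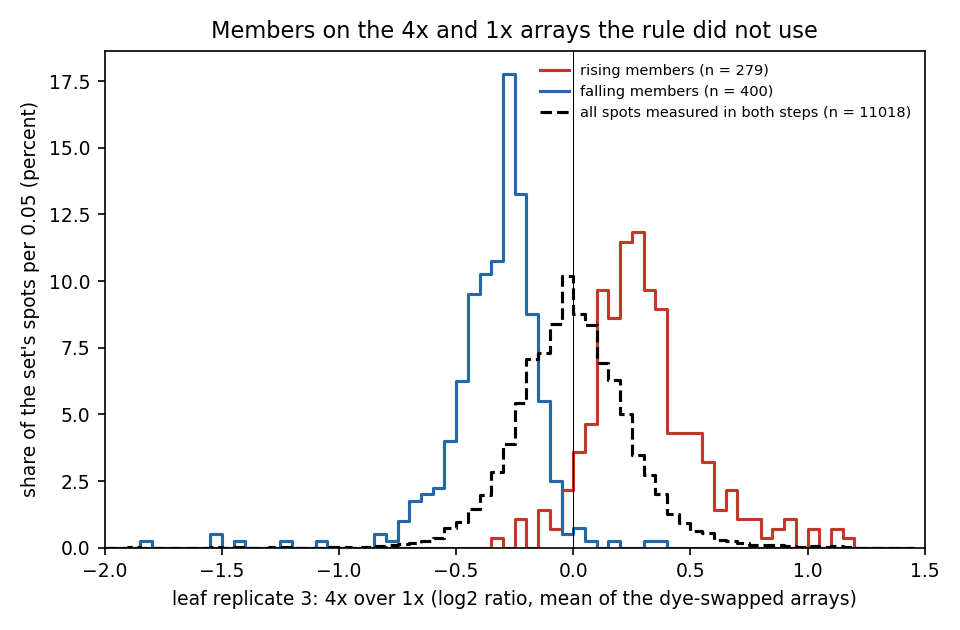
Distribution of the log2 ratio of 4x over 1x in leaf replicate 3, mean of the dye-swapped arrays, as the percent of each set's spots per bin of 0.05. Rising members (red, n = 279) centre at 0.28 and falling members (blue, n = 400) at -0.30, on either side of all spots measured in both steps (dashed, n = 11018, median -0.01).

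Single clones were tested in replicate 3 with limma, over the 6001 clones that had a value on every leaf array. Of these, 19 passed at a Benjamini-Hochberg adjusted p under 0.05, which is 0.317% (0.133% higher and 0.183% lower in 4x). Of 485 member clones tested, 12 passed, 7 of 204 rising clones and 5 of 281 falling clones. All 12 had the direction of the rule on both dye-swapped arrays, and none has a gene symbol. The limma estimate was above 0 in 194 of 204 rising clones, against 49% of all clones, and below 0 in 277 of 281 falling clones, against 50.9%. Among clones outside the rule, 1 of 401 with steps summing to 0.4 or more passed upward. Of 401 summing to -0.4 or less, 6 (1.5%) passed downward, so passing was not particular to falling members. The estimate kept the sign of the sum in 93.8% and 92.8% of these clones. Replicate 3 held 1 RNA sample of each line. The spread was therefore taken from replicates 1 and 2, which the rule used, and from the diploid pair of replicate 3. The median standard error was 0.13, on 4 residual degrees of freedom. A fit without either loop had only 1, so its count of passing member clones rests on little information about spread. Without replicate 1 the count was 2, and without replicate 2 it was 29. With no replicate block 73 member clones passed, against 5.42% of all clones.

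The fall that was largest among the 12 clones was -1.83 ± 0.21 (log2, SE; limma, adjusted p = 0.00478), a 3.55-fold lower ratio in 4x, with -1.94 and -1.72 on the dye-swapped arrays. Its steps in the loops were -1.003 and -0.32, so that most of its summed change fell at the first doubling. Another 2 falling clones stood at -1.47 ± 0.12 and -1.37 ± 0.12 (limma, adjusted p = 0.000702 for both). The other falling clones passed at -0.91 and -0.71. The 7 rising clones passed at 0.86 to 1.13, with adjusted p-values of 0.00403 to 0.0399 in limma. The clone at 1.13 ± 0.13 was 2.18-fold higher in 4x, with 1.24 and 1.01 on the dye-swapped arrays and loop steps of 0.59 and 0.34. Changes of 2-fold or more were thus found in 3 rising and 3 falling clones.

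No clone of a named gene passed in replicate 3, but the ratios of all 24 named genes measured there had the direction of the rule. LOC102596783 stood at 0.78 ± 0.20 (SE; limma, adjusted p = 0.129), with 0.82 and 0.74 on the dye-swapped arrays. The smallest adjusted p among the 34 fitted clones of these genes was 0.0738, for a clone of LOC102601725, whose member spots averaged 0.73 and 0.51 on the arrays. LOC102593129 averaged -0.72 and -0.46, and LOC102577839 averaged -0.74 and -0.44. None of these clones passed after adjustment over all clones tested, although 21 of the 34 had an unadjusted p under 0.05 in limma, against 949 of 6001 clones in all. LOC102577624 gave -0.46 and 0.05 and LOC102585108 gave -0.41 and 0.25, so that their dye-swapped arrays disagreed in sign. LOC102577605, whose second step rested on 1 array, gave 0.25 and 0.03.

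Of the unnamed clones with the largest steps, spot 140404 gave 0.86 and 0.49 on the dye-swapped arrays, spot 145180 gave 0.85 and 0.58, spot 137839 gave -0.74 and -0.47, and spot 142987 gave -0.67 and -0.54. Their direction was the same on both arrays, and none of these clones passed.

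Over all 3 leaf replicates, limma called 465 of 485 member clones for 4x over 1x, against 39.8% of all 6001 clones (19.9% higher and 19.9% lower in 4x). The rule used that contrast in replicates 1 and 2, so nothing is read from this count.

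The diploid lines have equal ploidy, and the rule used only their mean. No member clone differed between 2xR5 and 2xR3 in leaf by limma, where 0 of 6001 clones passed (0%). At an unadjusted p under 0.05 there were 21 of 204 rising and 18 of 281 falling member clones, against 518 of 6001 clones in all. The estimate of 2xR5 over 2xR3 was nonetheless above 0 in 176 of 204 rising clones (86.3%), against 52.7% of all clones. It was below 0 in 241 of 281 falling clones (85.8%), against 47.3% of all clones. The median estimate was 0.09 for rising and -0.10 for falling clones, against 0.01 over all clones, and the median standard error of a clone was 0.08. Most member clones thus stood nearer to 4x in 2xR5 than in 2xR3, while no single clone passed. These estimates pool all 3 replicates, and the 8 arrays of replicates 1 and 2 are those whose step values chose the members. Without replicate 1 the estimate was above 0 in 146 of 204 rising clones, with a median of 0.04, and below 0 in 192 of 281 falling clones, with a median of -0.05.

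This lean was largest in replicate 1, where rising spots had a median of 0.18 and falling spots of -0.21. Replicate 2 gave 0.04 and -0.04. Replicate 3, which shares no array with the rule, gave 0.05 and -0.07, with 174 of 271 rising spots above 0, against 48.3% of all spots, and 273 of 382 falling spots below 0, against 49.7%. Clones outside the rule showed this lean at a like median size and with smaller shares by sign. Where the steps summed to 0.4 or more, 77.1% of 401 clones were above 0, with a median of 0.092. Where they summed to -0.4 or less, 74.8% of 401 were below 0, with a median of -0.096. At an unadjusted p under 0.05 in limma there were 64 and 68 of these clones. The lean is therefore not particular to the members, and the difference in shares was not tested.

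Single genes did not all follow this lean in replicate 3. LOC102577931, a rising gene, had 2xR5 over 2xR3 at 0.24 and 0.36 on the dye-swapped arrays. LOC102577839, a falling gene, had 0.35 and 0.29, which is opposite to most falling members. A size of at least 0.2 was found in 84 of 653 members (12.9%), against 16% of all spots.

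In root tips the rule kept the ratio of diploids over 1x small, and 44 rising and 56 falling members had no root value for it. The second doubling in root was not used by the rule, although it shares the diploid RNA samples with the first. The ratio of 4x over diploids in root had a median of -0.00475 over 246 rising members and 0.003 over 363 falling members, against 0.00375 over 11741 spots. It had the leaf sign in 118 rising members (47.97%), where 51.8% of all spots were above 0, and in 176 falling members (48.5%), where 48% of all spots were below 0. On the mean of both root loops, the leaf direction therefore did not appear at the second doubling. The loops differed in sign. With replicate 4 alone the median estimate was 0.03 for rising and -0.02 for falling clones, against 0.02 over all clones. With replicate 5 alone it was -0.03 and 0.04, against -0.004. Each loop held 1 root sample per line, and this difference was not tested. Root RNA was amplified and leaf RNA was not, so tissue, days after planting and amplification cannot be told apart.

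No member clone passed in root for 4x over diploids by limma, where 0 of 8245 clones passed (0%). At an unadjusted p under 0.05 there were 13 of 184 rising and 15 of 264 falling member clones, against 582 of 8245 clones. Scaling the arrays to a common spread gave 1 of 448 member clones past the threshold, a falling one, against 13 of 8245 clones. A joint fit of both tissues gave 1 of 379, against 17 of 5121. Fits without replicate 4 or 5 also joined both tissues and kept 1 root sample per line, so only median estimates are given. Without replicate 4 the median was -0.03 for rising and 0.04 for falling clones, and without replicate 5 it was 0.03 and -0.02. Estimates of 0.4 or more in size were found in 5 member clones, all below 0, of which 4 were falling and 1 rising in leaf. The like count over all clones was not made, so no direction is read from these 5. Root ratios of 0.2 or more in size had the leaf direction in 5 rising and 15 falling member spots. They were against it in 10 rising and 3 falling member spots. The 5 clones included 2 of the falling clones that passed in leaf replicate 3, at -0.51 ± 0.22 and -0.53 ± 0.25 in root (SE; limma, adjusted p = 0.717 and 0.742).

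LOC102596978 was the named gene with the largest root ratio of 4x over diploids, and it was opposite to leaf. Its root arrays gave -0.17 and -0.58 for 4x over 2xR3 and -0.39 and -0.71 for 4x over 2xR5 in replicates 4 and 5. Its clone stood at -0.44 ± 0.10 (SE; limma, adjusted p = 0.424), against a leaf second step of 0.22 on the member spot. All 4 root arrays were below 0, and the clone did not pass over all clones. For LOC102596783 the corresponding root values were 0.03 and -0.08 against 2xR3 and 0.10 and -0.06 against 2xR5. LOC102601725 had root values of -0.05 to 0.15 on these arrays.

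**Figure D4:**
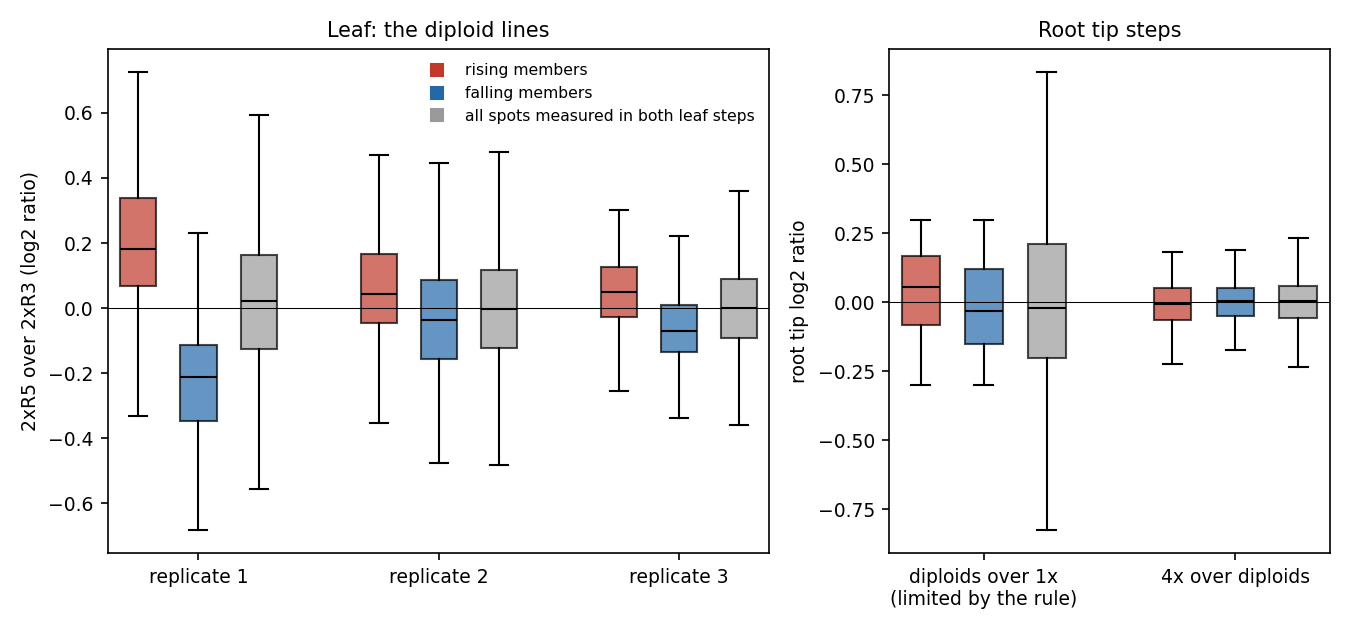
Left, log2 ratio of 2xR5 over 2xR3 in leaf by replicate; right, root tip log2 ratios of diploids over 1x (limited by the rule) and of 4x over diploids, over spots. Boxes show the median and quartiles of rising members (red), falling members (blue) and all spots measured in both leaf steps (grey), and whiskers reach 1.5 times the box height. The diploid difference of members is widest in replicate 1 (medians 0.18 and -0.21), and the root ratios of 4x over diploids centre near 0 in all 3 sets.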

How the data were processed

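Spotted two-colour arrays measured leaf and root tip RNA of 4 lines. The deposited values are log2 ratios, made by the authors with limma per the submitters' processing notes; its version, the background correction and the within-array method are not given in the sources used here. All of them (100%, within 0.0015) equal the log2 of a ratio of 2 decimals, and array medians lay within 0.014 of 0. No intensities were used here. Signs were turned so that the higher ploidy is on top.

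The root ratio was the mean of the values present. Duplicate spots were averaged to clones. Each loop was solved by least squares for the 4 lines, and dye-swapped arrays were averaged. The resulting sample values went into limma 3.58.1 (lmFit, eBayes; R 4.3.3) with replicate as a block, because no array joins different replicates. The ratio of 4x over 1x in leaf replicate 3 was a coefficient of its own. The threshold was a Benjamini-Hochberg adjusted p under 0.05 over all clones of the tissue with a value on every array. The fits were tested on simulated data.

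Gene names follow the platform's annotation and may be outdated: all with 1 symbol if at most 30, otherwise the 15 rising and 15 falling genes with the largest smaller step, plus 2 unnamed clones each way. Groups by gene description and promoter motifs were planned and not used here, since the annotation used here gives symbols alone. The members and lists were chosen with earlier results of these data known. The alternatives tried were other step limits, array scaling, root conditions, units, missing-value rules, robust eBayes, no replicate block and leaving out each replicate. No sample column was left unmapped.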

Additional observations from a re-analysis of the deposited data

Results flagged for a closer look

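Within 58 groups of 4 leaf arrays, 1 group per step for each of 29 named genes and clones, a single array stood apart from the other 3 in 2. For LOC102596978 the ratio of 4x over 2xR3 in replicate 2 was 0.473, against 0.111 to 0.167 on the other arrays of the second step. For the clone of spots 140404 and 141248 the ratio of 2xR3 over 1x in replicate 1 was 0.352, against 0.702 to 0.752 on the other arrays of the first step. Chance flags about 1 in 20 such groups. No cause was tested.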

How the results depend on the processing

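The number of member spots was 789 as reported, 1370 with steps of at least 0.15, 264 with steps of at least 0.3, 414 clones with clone means in place of spots, and 656 to 1451 when either leaf loop was left out. The share of measured members with the direction of the rule in replicate 3 was 96.6% as reported, 94.7% at 0.15, 100% at 0.3, 91.1% to 94.6% when either loop was left out, and 88.1% on the array with 1x in Cy5 alone. Member clones passing in replicate 3 numbered 12 as reported, 73 in the array-level fit with no replicate block, and 2 to 29 without either loop; over all clones these fits called 19, 325 and 3 to 114. For 2xR5 over 2xR3 no alternative called a member clone, the fit with no replicate block included, although 7 of 8222 clones passed without replicate 3. For root 4x over diploids the count of 0 became 1 with scaled arrays, where 13 of 8245 clones passed in all. It was 1 in the joint fit of both tissues, chosen after seeing the data, where 17 of 5121 passed. The fit with no replicate block gave 0, where 5 of 8245 passed. With replicate 4 or 5 left out, the median root estimate was -0.03 and 0.03 for rising clones and 0.04 and -0.02 for falling ones. The replicate 3 ratio changed sign on the array with 1x in Cy5 for LOC102577624, at 0.0505 against -0.21, and for LOC102585108, at 0.25 against -0.08. Of the 41 alternative values of these counts and shares, 26 stayed within their bound, 1.5-fold for counts and the binomial confidence interval for the share. They include the 656 above and 1126 member spots with no condition on the root step. A like count does not mean the same spots. Of the 789 members, 393 were among the 656 found without replicate 2, and 620 among the 1451 found without replicate 1. With scaled arrays 686 spots were found, of which 559 were among the 789. For named genes and clones, 254 of 258 values kept their sign and moved by less than 1 SD of their own arrays. A value from a single loop, or from a single dye-swapped array, cannot move past that bound by arithmetic. There only a turn of sign could show, so this count is no evidence of stability. With either loop left out, 14 of 25 second steps moved by over 1.5 times. Reading the root ratio as missing unless all 4 arrays had a value, also chosen after seeing the data, gave 836 spots that included all 789. The cause of these shifts was not tested. Leaf replicate 3 holds 1 RNA sample per line and each root group 2, and no spot brightness was used, so dim spots could not be examined.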
